A study of Mus musculus with 6 samples.

Results

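Chemokine ligands are small secreted proteins that draw leukocytes along a gradient. The deposited table of gene levels was searched for symbols that start with Ccl or Cxcl followed by a digit, together with Cx3cl1 and Xcl1. This rule found 38 ligands among 23412 genes: 24 Ccl genes, 12 Cxcl genes, Cx3cl1 and Xcl1. Of these, 18 averaged 1 FPKM or more across all 6 mice and were tested (FPKM counts fragments per gene, adjusted for gene length and library depth). A further 16 were seen at lower levels, and 4 were listed at 0 in every library. The rule used symbols and no measured value, but the ligands were chosen with earlier results of these data known.

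Total RNA came from ventral dermis of 3 activated beta-catenin mutants and 3 littermate controls on a mixed CD1 and C57BL/6 background. The mutants carried HoxB6CreERT/+, R26-YFP/+ and CatnbΔex3/+, and the controls carried HoxB6CreERT/+ and R26-YFP/+ without the beta-catenin allele. All 6 mice therefore had the tamoxifen-inducible Cre and the fluorescent reporter, all were exposed to tamoxifen through their mothers at embryonic day 16.5, and all were 3 weeks old when dissected. Loss of exon 3 of Ctnnb1, the beta-catenin gene, stabilises the protein, and it could occur only in cells in which the Hoxb6-driven Cre was active. What share of dermal fibroblasts recombined is not stated. The comparison asks which ligand genes differ between dermis with active beta-catenin in fibroblasts and control dermis, in a study that names skin fibrosis in its title.

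Chemokines are named for the spacing of their first conserved cysteines: adjacent in CC ligands, separated by a single residue in CXC ligands and by 3 in CX3CL1. They act through G protein-coupled receptors on leukocytes. Ligands of CCR2 recruit monocytes, ligands of CXCR2 recruit neutrophils, ligands of CCR7 guide dendritic cells into lymph vessels, and ligands such as Cxcl12 and Cxcl14 are made in skin without inflammation. In skin, fibroblasts, macrophages, keratinocytes and endothelium can all make chemokines, and RNA from whole dermis does not show which cell made them.

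Fragments assigned to genes, recovered from the steps of the FPKM values, numbered 11839144 to 13478910 in mutants and 7799565 to 9675359 in controls. All 11 listed dermal fibroblast markers were expressed, with summed levels of 9554 to 13770 FPKM in mutants and 2743 to 10520 FPKM in controls. Keratinocyte markers (985 to 1164 FPKM in mutants, 921 to 1090 FPKM in controls) and skeletal muscle markers (595 to 1283 and 293 to 1194 FPKM) were present too, so the dissected tissue held more than dermal fibroblasts. Ctnnb1 stood at 193, 136 and 168 FPKM in mutants 1 to 3 and at 201, 163 and 183 FPKM in controls 1 to 3, which cannot show the loss of a single exon. The groups differed in sex: all 3 mutants and control 3 expressed Y-linked genes, and controls 1 and 2 instead expressed the X-inactivation transcript Xist, at 55.5 and 66.2 FPKM. Mutant 2 had both, with 6.47 FPKM of Xist. Mutant 1 had the highest and control 2 the lowest median-of-ratios factor (1.18 and 0.885), with mutant 2 near control 2 at 0.9295. The ligands were also compared without mutant 1 and control 2, a setting chosen after the data were seen.

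No chemokine ligand passed the test across all genes. Of the 18 tested, 0 were called higher and 0 lower at an adjusted p of 0.05 (limma on log2(FPKM + 1) with Benjamini-Hochberg adjustment over 12560 genes), where 0.143% of all tested genes were called higher and 0% lower. The smallest adjusted p of a ligand was 0.0957, for Ccl9. At an unadjusted p under 0.05, 8 of 18 ligands were higher in mutants and 0 lower, against 10.5% and 0.748% of all tested genes. After median-of-ratios scaling, which lowers the median of all tested genes to -0.01, these were 7 and 0 ligands against 10.1% and 6.49% of all genes. The count of higher ligands was 5 of 18 with library sex in the model (4.04% of all genes) and 5 of 18 without mutant 1 and control 2 (4.36%). They were Ccl11, Ccl27a, Ccl6, Ccl9 and Cxcl16 with library sex, and Ccl12, Ccl6, Ccl8, Ccl9 and Cxcl16 in the other setting. Ccl11 was not among the 8 of the main fit. In 5 of 18 ligands every mutant lay above every control, against 13.0% of all tested genes, and in 0 of 18 every mutant lay below every control, against 2.65%. The log2 difference, mutant minus control, was above 0 in 16 of 18 ligands (71.3% of all tested genes) and had a median of 0.50 over the ligands, where the median over all tested genes was 0.09. More or fewer cells of a type and more or less RNA per cell cannot be told apart in these bulk samples.

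**Figure D1:**
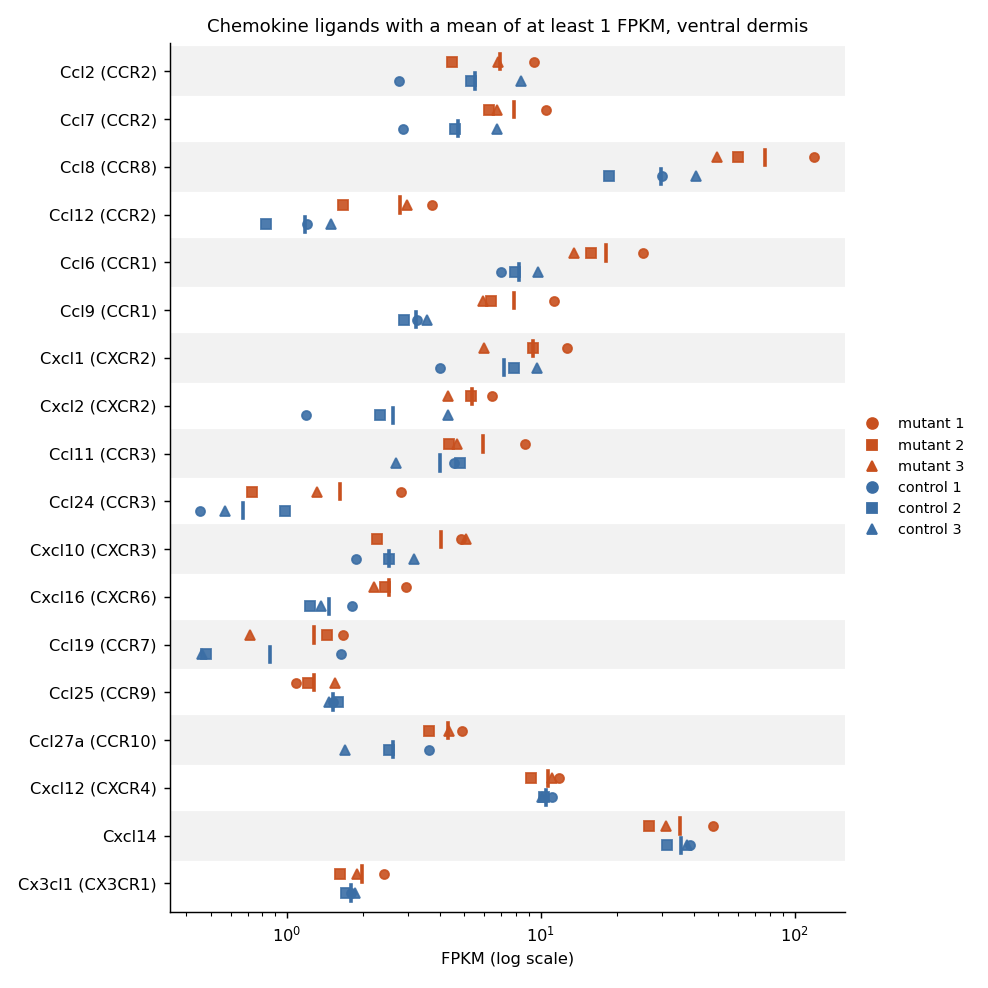
FPKM of the 18 tested chemokine ligands in each library on a log axis, with mutants above controls in each row, symbols for single libraries, vertical ticks for group means and a receptor in brackets. Ccl8 and Cxcl14 have the highest levels, and in Ccl8, Ccl12, Ccl6, Ccl9 and Cxcl16 all 3 mutants lie to the right of all 3 controls.

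The monocyte chemoattractant proteins, of which Ccl2, Ccl7 and Ccl12 act through CCR2, included the most abundant chemokine of the mutant dermis. Ccl8, the protein numbered 2 of this family, has been described in mice as an agonist of CCR8, a receptor of T cells. It stood at 119, 60.0 and 49.6 FPKM in mutants 1 to 3, against 30.0, 18.6 and 41.0 FPKM in controls 1 to 3. Every mutant exceeded every control, with mutant 1 far above the rest and mutant 3 nearest to the highest control. The group means were 76.3 ± 37.7 FPKM in mutants and 29.9 ± 11.2 FPKM in controls (SD, n = 3 each), a log2 difference of 1.29 (SE 0.36, 95% interval 0.49 to 2.09, adjusted p = 0.186). These values rest on 539 to 1194 reads per mutant library and 151 to 313 reads per control library.

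Ccl12, a monocyte attractant known from mice, was a low-level gene of the same group. It stood at 3.72, 1.66 and 2.98 FPKM in the mutants and at 1.21, 0.823 and 1.498 FPKM in the controls. The groups did not overlap, but the lowest mutant and the highest control were close together, with 19 and 12 reads. The log2 difference was 0.77 (SE 0.21, adjusted p = 0.186).

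Ccl7, or monocyte chemoattractant protein 3, stood at 10.5, 6.27 and 6.71 FPKM in mutants and at 2.87, 4.58 and 6.70 FPKM in controls. Control 3 reached the level of mutants 2 and 3, so the groups overlapped (log2 difference 0.65, SE 0.25, adjusted p = 0.366). Ccl2, the best known monocyte attractant, stood at 9.45, 4.48 and 6.76 FPKM in mutants and at 2.77, 5.32 and 8.38 FPKM in controls. Here control 3 exceeded mutants 2 and 3, and the log2 difference of 0.33 lay within its error (SE 0.32, 95% interval -0.39 to 1.05, adjusted p = 0.800). When library sex entered the model, so that control 3 was the sole control of the mutants' sex, the differences were 0.78 for Ccl8, 0.56 for Ccl12, 0.17 for Ccl7 and -0.30 for Ccl2. Without mutant 1 and control 2 they were 0.62 for Ccl8 and 0.47 for Ccl12.

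These 4 genes sit in a single run on chromosome 11 (GRCm38): Ccl2 at 82035571 to 82037453, Ccl7 at 82045712 to 82047525, Ccl12 at 82101845 to 82103400 and Ccl8 at 82115185 to 82116799. Ccl11 lies among them, at 82057823 to 82062955. Neighbours differed in their pattern: Ccl12 and Ccl8, 11784 bases apart, had separate groups, and Ccl2 and Ccl7, 8258 bases apart, did not.

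Ccl6 and Ccl9, ligands of CCR1 that are known from rodents and made by myeloid cells, had the smallest p-values among the 18 tested ligands. Ccl6 stood at 25.2, 15.8 and 13.5 FPKM in mutants 1 to 3 and at 6.99, 7.90 and 9.78 FPKM in controls 1 to 3. All mutants were above all controls, and mutants 2 and 3 lay close to each other. The means were 18.2 ± 6.23 FPKM in mutants and 8.23 ± 1.42 FPKM in controls (SD, n = 3 each), with a log2 difference of 1.02 (SE 0.22, 95% interval 0.52 to 1.51, adjusted p = 0.110).

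Ccl9 stood at 11.2, 6.35 and 5.92 FPKM in mutants and at 3.26, 2.89 and 3.56 FPKM in controls. The controls spanned a narrow range and the groups were clearly apart. The means were 7.84 ± 2.95 and 3.24 ± 0.334 FPKM (SD, n = 3 each), a log2 difference of 1.01 (SE 0.20, 95% interval 0.55 to 1.47, adjusted p = 0.0957). Leaving out control 3 brought both genes past the threshold in limma (adjusted p = 0.0459 for Ccl6 and 0.0453 for Ccl9). Over all 12560 genes, the calls higher in mutants numbered 189 without control 3 and 18 with it. Without control 3, the remaining controls expressed Xist and all 3 mutants Y-linked genes, so genotype and sex cannot be told apart there. Leaving out any other single library did not bring either gene past the threshold, with adjusted p up to 0.278 for Ccl6 and 0.267 for Ccl9. With library sex in the model the differences were 0.78 for Ccl6 and 0.91 for Ccl9. Without mutant 1 and control 2 they were 0.75 for Ccl6 and 0.695 for Ccl9.

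Ccl9 (chromosome 11, 83572919 to 83578636) and Ccl6 (83587882 to 83593087) are the closest pair of ligand genes in their run, 9245 bases apart. They lie in a second run of ligand genes together with Ccl5, Ccl3 and Ccl4, which had fewer reads. Ccl3, the macrophage inflammatory protein 1-alpha, stood at 1.10, 0.415 and 0.654 FPKM in mutants and at 0.297, 0.319 and 0.339 FPKM in controls, with 7 to 17 reads per mutant library and 4 in each control. Every mutant was above every control, on few reads. Ccl4, the related beta chain, stood at 0.852, 0.426 and 0.285 FPKM in mutants and 0.267, 0.0955 and 0.406 FPKM in controls, and the groups overlapped. Ccl5, a T cell and monocyte attractant, was at 0.265 to 0.708 FPKM in mutants and 0 to 0.378 FPKM in controls.

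**Figure D2:**
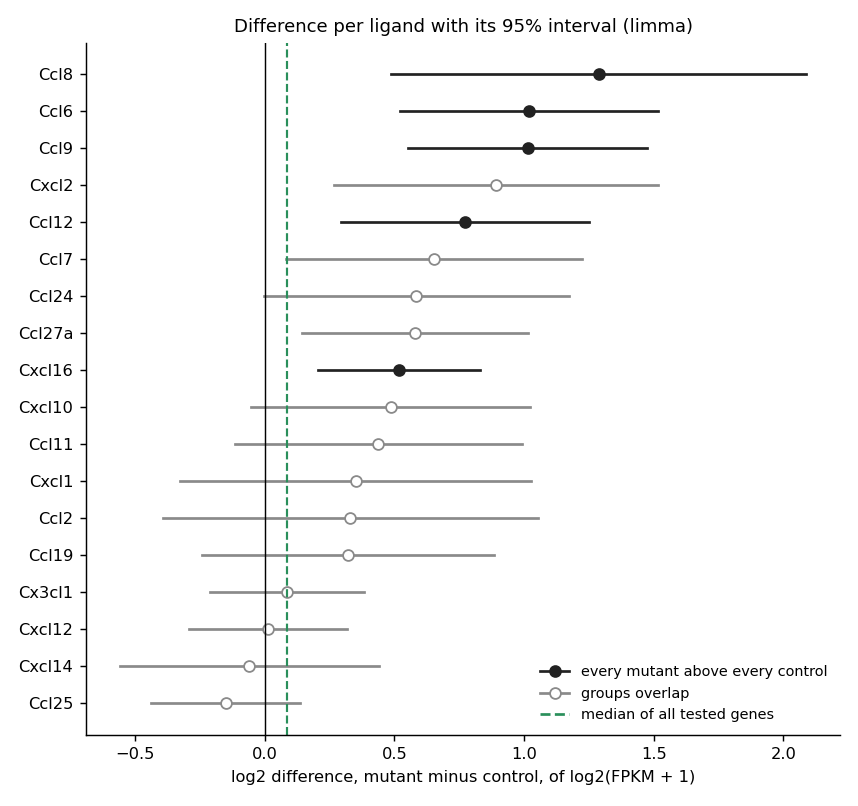
Log2 difference of log2(FPKM + 1), mutant minus control, for the 18 tested ligands, with 95% intervals from limma, filled points where every mutant lies above every control and a dashed line at the median of all tested genes. Ccl8, Ccl6 and Ccl9 have the largest differences, 1.29, 1.02 and 1.01, and Cxcl12, Cxcl14 and Cx3cl1 lie near 0.

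Ligands of CXCR2, the receptor of neutrophils, gave a mixed picture. Cxcl2, or macrophage inflammatory protein 2, stood at 6.42, 5.32 and 4.30 FPKM in mutants and at 1.19, 2.33 and 4.32 FPKM in controls. Control 3 was level with mutant 3, and controls 1 and 2 were lower than all mutants. The log2 difference was 0.89 (SE 0.28, adjusted p = 0.239). It was 0.24 once library sex entered the model and 0.58 without control 1. Without control 3 it was 1.22 and passed the threshold (adjusted p = 0.0217). In that setting genotype and sex cannot be told apart. Cxcl1, the mouse counterpart of the GRO chemokines, stood at 12.7, 9.28 and 5.99 FPKM in mutants and at 4.02, 7.84 and 9.66 FPKM in controls. The groups overlapped widely (log2 difference 0.35, SE 0.30, adjusted p = 0.766), and in the model with library sex the difference was -0.10. Cxcl3 and Cxcl5 were barely seen, with at most 1 and 3 reads in any library.

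The order of the controls was shared by 6 of the 18 tested ligands: Ccl2, Ccl6, Ccl7, Cxcl1, Cxcl2 and Cxcl10 were each lowest in control 1, intermediate in control 2 and highest in control 3. Il6, a cytokine often induced together with them, had the same order, with 7.80, 6.51 and 4.15 FPKM in mutants and 1.46, 3.25 and 6.46 FPKM in controls (log2 difference 0.71, SE 0.35, adjusted p = 0.509). These genes were picked for their order after their values were seen. The share of all tested genes with this order was not counted, so it is not shown to be particular to these ligands. Control 3 was also the control with Y-linked expression, and the part of library sex in this order was not tested.

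Promoter windows are shown for the 3 ligands with the largest differences (Ccl8, Ccl6 and Ccl9) and for the inducible CXC ligands (Cxcl1, Cxcl2 and Cxcl10). Each is the 250 bases before the annotated start, from RefSeq (GRCm38.p6), read 5′ to 3′ on the gene's strand, with matches to a kB motif (GGG, any 3 bases, then TTCC, on either strand) or to an interferon response motif (GAAA, any 2 bases, then GAAA, on either strand) in capitals:
Ccl8 (chr11:82114935-82115184, + strand): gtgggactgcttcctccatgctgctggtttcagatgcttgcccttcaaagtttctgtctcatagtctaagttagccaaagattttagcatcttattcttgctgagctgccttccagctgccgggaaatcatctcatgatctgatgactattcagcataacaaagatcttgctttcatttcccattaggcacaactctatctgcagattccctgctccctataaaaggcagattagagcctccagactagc
Ccl6 (chr11:83593088-83593337, - strand): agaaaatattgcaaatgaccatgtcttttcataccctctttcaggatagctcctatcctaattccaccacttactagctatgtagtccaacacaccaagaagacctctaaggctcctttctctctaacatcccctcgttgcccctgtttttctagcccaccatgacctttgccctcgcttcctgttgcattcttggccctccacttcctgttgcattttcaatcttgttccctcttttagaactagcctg
Ccl9 (chr11:83578637-83578886, - strand): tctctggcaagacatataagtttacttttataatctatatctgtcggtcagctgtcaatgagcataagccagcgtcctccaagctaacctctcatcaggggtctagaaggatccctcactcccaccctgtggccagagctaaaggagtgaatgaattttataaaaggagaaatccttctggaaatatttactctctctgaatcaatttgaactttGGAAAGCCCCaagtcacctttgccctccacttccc
Cxcl1 (chr5:90890995-90891244, + strand): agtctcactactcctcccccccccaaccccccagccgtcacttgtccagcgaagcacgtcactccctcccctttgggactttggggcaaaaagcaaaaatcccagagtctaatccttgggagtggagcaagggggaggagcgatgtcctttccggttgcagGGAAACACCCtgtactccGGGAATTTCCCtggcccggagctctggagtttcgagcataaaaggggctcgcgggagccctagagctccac
Cxcl2 (chr5:90903649-90903898, + strand): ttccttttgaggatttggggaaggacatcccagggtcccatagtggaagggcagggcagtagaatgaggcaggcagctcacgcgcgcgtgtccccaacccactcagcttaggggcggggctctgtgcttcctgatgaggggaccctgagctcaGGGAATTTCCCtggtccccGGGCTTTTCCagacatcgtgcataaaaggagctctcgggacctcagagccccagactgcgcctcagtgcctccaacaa
Cxcl10 (chr5:92348890-92349139, - strand): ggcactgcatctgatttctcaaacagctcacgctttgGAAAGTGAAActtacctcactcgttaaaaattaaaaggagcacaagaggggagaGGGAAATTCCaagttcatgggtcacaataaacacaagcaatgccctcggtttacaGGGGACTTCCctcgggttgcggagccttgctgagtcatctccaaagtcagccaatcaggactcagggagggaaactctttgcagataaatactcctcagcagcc
In the Cxcl1 window the run of 11 capitals holds overlapping matches on opposite strands, as does the same 11-base run in Cxcl2.

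The kB motif is the binding sequence of NF-kB, a factor of inflammatory gene induction. It matched in 4.65% of all 32851 promoter windows of this length. Among the 13 tested ligands with a RefSeq window (16 windows), it matched in those of Cxcl1, Cxcl2, Cxcl10 and Ccl9. Ccl2, Ccl7, Ccl11, Ccl24 and Cxcl16 had no window and were not searched for any motif. The interferon motif matched in 2.98% of all windows and, among tested ligands, in those of Cxcl10, Ccl19 and Cxcl14. A TCF/LEF motif (CTTTGAT, either strand), the type of site through which beta-catenin acts, matched in 3.21% of all windows and in that of Cxcl12 among tested ligands. A C/EBP motif (TTGCNNAA, either strand) matched in 9.56% of all windows and in Ccl27a alone among tested ligands, and a TATA motif (TATAAA, gene strand) in 7.59% of all windows and in those of Ccl8, Ccl9, Ccl12, Ccl25 and Cx3cl1. Ccl12, whose groups were also separate, had no kB or interferon match in its window. Of the genes with a kB match, Ccl9 had separate groups and Cxcl1, Cxcl2 and Cxcl10 had overlapping ones. Whether matches go with differences between groups was not tested. A match is a description of the letters and not of binding.

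The eotaxins, ligands of CCR3 that attract eosinophils, were not apart between groups. Ccl11, or eotaxin 1, a product of dermal fibroblasts among other cells, stood at 8.67, 4.37 and 4.69 FPKM in mutants and at 4.54, 4.82 and 2.68 FPKM in controls. Only mutant 1 exceeded all controls (log2 difference 0.44, SE 0.25, adjusted p = 0.583), and the difference was 0.17 without that library, 0.23 without control 3 and 0.85 with library sex in the model. Ccl24, or eotaxin 2, stood at 2.81, 0.727 and 1.31 FPKM in mutants and at 0.456, 0.978 and 0.571 FPKM in controls. Mutant 2 lay below control 2, and the values rest on 20 to 71 reads per mutant library and 10 to 20 reads per control library (log2 difference 0.58, SE 0.26, adjusted p = 0.447). Without mutant 1 the difference of Ccl24 was 0.27. Ccl26 had at most 1 read in any library.

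The interferon-induced ligands of CXCR3 attract activated T cells, and Cxcl9 and Cxcl10 were higher in mutants 1 and 3 than in mutant 2. Cxcl10 stood at 4.83, 2.26 and 5.08 FPKM in mutants and at 1.87, 2.52 and 3.16 FPKM in controls. Mutant 2 lay below controls 2 and 3 (log2 difference 0.49, SE 0.24, adjusted p = 0.503), and the difference was 0.78 without mutant 2 and 0.23 with library sex in the model. Cxcl9 stood at 1.85, 0.726 and 1.54 FPKM in mutants and at 0.526, 0.477 and 0.553 FPKM in controls. It stayed below a mean of 1 FPKM, and all mutants were above all controls, with 45 to 105 reads in mutant libraries and 22 to 26 in control libraries. Cxcl11, which is annotated as a polymorphic pseudogene, was at 0.191 to 0.264 FPKM in mutants and 0.118 to 0.209 FPKM in controls. Cxcl9 (chromosome 5, 92321347 to 92328079), Cxcl10 (92346638 to 92348889) and Cxcl11 (92359544 to 92365485) are neighbours. The exons of Cxcl10 share 133 bases with Art3 and those of Cxcl11 share 1582 bases with Gm2673, in each case on the opposite strand. It is not stated whether counting used strand.

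Cxcl16 and Cx3cl1 are made as membrane proteins that can be shed, and they differed in pattern. Cxcl16, the ligand of CXCR6, stood at 2.94, 2.43 and 2.21 FPKM in mutants and at 1.80, 1.24 and 1.37 FPKM in controls. The groups were separate and each was tight, with means of 2.53 ± 0.377 FPKM in mutants and 1.47 ± 0.295 FPKM in controls (SD, n = 3 each; log2 difference 0.52, SE 0.14, adjusted p = 0.185). The difference was 0.57 with library sex in the model and 0.37 without mutant 1 and control 2. Cxcl16 (chromosome 11, 70453983 to 70459984) shares 552 exon bases with Zmynd15 on the opposite strand. Cx3cl1, or fractalkine, stood at 2.41, 1.62 and 1.88 FPKM in mutants and at 1.79, 1.71 and 1.85 FPKM in controls. Mutant 2 was the lowest of all libraries, and the difference of 0.09 had a 95% interval of -0.21 to 0.38 (adjusted p = 0.894).

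Among the ligands linked to resting tissue and lymphoid traffic, Ccl27a, a keratinocyte chemokine that draws T cells through CCR10, stood at 4.91, 3.64 and 4.35 FPKM in mutants and at 3.64, 2.53 and 1.69 FPKM in controls. Control 1 met mutant 2, at 3.641 and 3.638 FPKM (log2 difference 0.58, SE 0.19, adjusted p = 0.283). It was 0.38 without control 3 and 0.97 with library sex in the model. Of the 50-base words in its transcripts, 45.0% also occur in transcripts of other genes, so its count may miss or share reads. Ccl19, which guides dendritic cells through CCR7, stood at 1.67, 1.43 and 0.718 FPKM in mutants and at 1.63, 0.482 and 0.465 FPKM in controls, with control 1 close to mutant 1 (log2 difference 0.32, SE 0.25, adjusted p = 0.732). Leaving out single libraries gave 0.18 to 0.60, and leaving out mutant 1 and control 2 gave 0.06. It shares 52.0% of its words with other genes. Ccl25, a ligand of CCR9 known from thymus and gut, stood at 1.08, 1.21 and 1.55 FPKM in mutants and at 1.52, 1.58 and 1.47 FPKM in controls (log2 difference -0.15, SE 0.13, adjusted p = 0.759). Its exons share 204 bases with Elavl1 on the opposite strand, so part of its reads may come from that gene if counting ignored strand.

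The 4 ligand genes listed at 0 in all libraries were Ccl21a, Ccl21b, Ccl21c and Ccl27b. They belong to gene copies that are nearly identical, and 71.6% of the words of Ccl21a, 100% of those of Ccl21b and 98.1% of those of Ccl27b occur in other genes. Ccl21c had no entry under that symbol in the annotation used. The haemoglobin genes Hba-a1, Hba-a2, Hbb-b1 and Hbb-b2, which also exist as similar copies, were listed at 0 as well. Listed markers of lymphatic endothelium, the known source of Ccl21, were detected. Lyve1, a hyaluronan receptor, stood at 9.55, 9.35 and 5.52 FPKM in mutants and 3.88, 3.24 and 2.95 FPKM in controls. Prox1 was lower and overlapped, at 0.519, 0.883 and 0.682 FPKM in mutants and 0.525, 0.518 and 0.582 FPKM in controls. Of 6 listed markers 5 were tested, and in 4 every mutant lay above every control (13.0% of all tested genes). A 0 for such copies cannot be read as absence of the RNA.

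Cxcl12 and Cxcl14, the constitutive chemokines of stroma and skin, were among the most abundant ligands and did not differ beyond their error. Cxcl12, the ligand of CXCR4, stood at 11.8, 9.11 and 11.1 FPKM in mutants and at 11.1, 10.3 and 10.1 FPKM in controls. The libraries lay close together and in no order by group, with a log2 difference of 0.01 and a 95% interval of -0.29 to 0.32 (adjusted p = 0.987). Its sign changed with the scaling, to -0.10 after median-of-ratios scaling. Cxcl14, a chemokine of epithelium and dermis whose receptor is not settled, stood at 47.8, 26.8 and 31.2 FPKM in mutants and at 38.6, 31.4 and 37.6 FPKM in controls. Mutant 1 was the highest and mutant 2 the lowest of all libraries (log2 difference -0.06, 95% interval -0.56 to 0.44, adjusted p = 0.965). The difference was 0.11 without mutant 2 and -0.385 without mutant 1 and control 2.

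The makeup of the ligand pool was read as each gene's share of the summed FPKM of all 38 ligands, a value that no scaling of a library changes. Ccl8 made up 40.2%, 35.6% and 29.6% of that sum in mutants 1 to 3 and 24.3%, 16.7% and 27.4% in controls 1 to 3. Cxcl14 made up 16.1%, 15.9% and 18.6% in mutants and 31.3%, 28.1% and 25.1% in controls. Thus Ccl8 led in every mutant library and in control 3, and Cxcl14 led in controls 1 and 2. The shares did not overlap between groups for either gene, and for Ccl6 they were 8.49%, 9.35% and 8.06% in mutants against 5.66%, 7.07% and 6.54% in controls. Cxcl12 contributed 3.98%, 5.41% and 6.61% in mutants and 9%, 9.24% and 6.75% in controls, also without overlap. Here mutant 3 and control 3 were close together. Shares of the same sum depend on each other, so these genes are not separate observations. The mean levels of Cxcl12 (10.7 FPKM in mutants, 10.5 FPKM in controls) and Cxcl14 (35.3 and 35.9 FPKM) were close, and the sum they are divided by was higher in every mutant than in any control. Cxcl1 (4.26%, 5.51% and 3.58% in mutants, 3.26%, 7.02% and 6.45% in controls) and Ccl7 (3.53%, 3.72% and 4.01% in mutants, 2.32%, 4.1% and 4.47% in controls) had overlapping shares. With 3 libraries against 3, an exact permutation test cannot give a two-sided p below 0.1, so these shares are given without one.

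**Figure D3:**
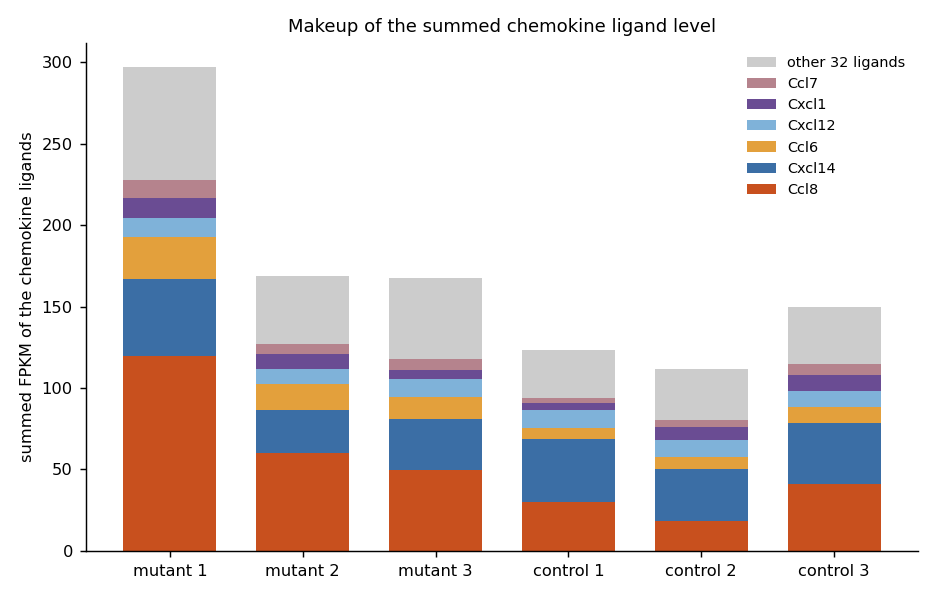
Summed FPKM of all 38 chemokine ligands per library, mutants on the left and controls on the right, with the 6 most abundant ligands in colour and the other 32 in grey. The sums are 297, 168.5 and 167 FPKM in mutants 1 to 3 and 124, 112 and 150 FPKM in controls 1 to 3, and the Ccl8 segment is larger in each mutant than in any control.

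Levels also varied between mice of the same genotype. Mutant 1 was the highest of the 6 libraries in 16 of the 18 tested ligands and in 10 of 18 after median-of-ratios scaling. Control 3 was the highest control in 10 of 18 ligands as deposited and in 9 after scaling. The shares of all tested genes that were highest in mutant 1 or in control 3 were not counted. Neither count is thus shown to be particular to the ligands. Mutant 1 also had the highest median-of-ratios factor of the libraries (1.18). Against the control mean, the median deviation of the 18 ligands on the log2(FPKM + 1) scale was 0.80, 0.35 and 0.43 in mutants 1 to 3 and 0.01, -0.02 and 0.09 in controls 1 to 3.

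The 16 ligands seen below a mean of 1 FPKM rest on few reads. In 3 of them, Ccl22, Ccl3 and Cxcl9, all mutants were above all controls, and in 1, Cxcl5, all were below. Among all 9032 genes seen below a mean of 1 FPKM, 8.13% had every mutant above every control and 3.12% every mutant below. Ccl22, a dendritic cell product that attracts T cells through CCR4, stood at 0.988, 0.621 and 0.649 FPKM in mutants and 0.292, 0.104 and 0.111 FPKM in controls. That is 35, 24 and 25 reads in mutants and 9, 3 and 3 in controls, and with no filter on low values its adjusted p was 0.146 with limma. Ccl17, the other CCR4 ligand, also on chromosome 8, stood at 1.39, 0.0912 and 1.01 FPKM in mutants and at 0.229, 0.123 and 0 FPKM in controls. Mutant 2 had a single read of it, so it resembled the controls there. Cxcl13, the B cell attractant, was highest in mutant 2 instead, with 0.616, 1.98 and 0.688 FPKM in mutants and 0.354, 0.814 and 0.864 FPKM in controls. Xcl1, made by T and natural killer cells, was at 0.467 to 1.02 FPKM in mutants and 0.502 to 0.702 FPKM in controls. The epithelial chemokine Ccl28 was at 0.0820 to 0.213 FPKM in mutants and 0.125 to 0.330 FPKM in controls. Ccl20 (0.175 to 0.255 FPKM in mutants and 0.0732 to 0.236 FPKM in controls), Ccl1 (0.186 to 0.372 and 0 to 0.233 FPKM) and Cxcl17 (0 to 0.618 and 0.0880 to 0.332 FPKM) overlapped between groups.

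**Figure D4:**
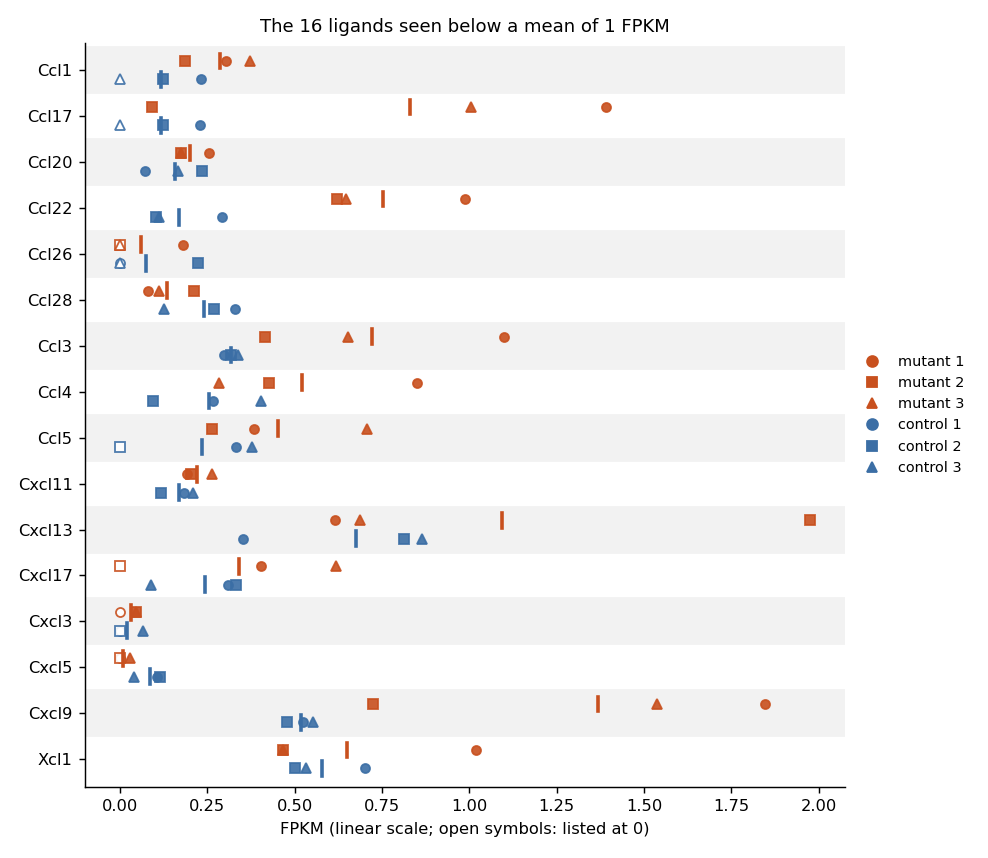
FPKM on a linear axis of the 16 ligands seen below a mean of 1 FPKM, with mutants above controls in each row and open symbols for values listed at 0. Cxcl9, Ccl22 and Ccl3 have all 3 mutants above all controls, and Ccl17 and Cxcl13 differ most between mutant libraries.

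Most receptors of these ligands, which sit mainly on leukocytes, were expressed at low levels. Of 18 signalling receptors, 3 had a mean of at least 1 FPKM, and 0 were called higher or lower. Ccr2, the receptor of Ccl2, Ccl7 and Ccl12, stood at 10.1, 5.20 and 7.98 FPKM in mutants and at 3.47, 2.07 and 2.39 FPKM in controls. All mutants were above all controls, with a log2 difference of 1.24 (SE 0.22, adjusted p = 0.0744). Ccr1, the receptor of Ccl6 and Ccl9, stood below the filter at 1.35, 0.844 and 0.614 FPKM in mutants and at 0.311, 0.312 and 0.355 FPKM in controls, again with separate groups. Ccr3, the receptor of the eotaxins, stood at 0.640, 0.172 and 0.244 FPKM in mutants and at 0.0718, 0.0771 and 0.0409 FPKM in controls. It was low, with no overlap between groups. Ccr8 stood at 0.133, 0.162 and 0.122 FPKM in mutants and at 0, 0.164 and 0 FPKM in controls, with overlap. In all, 8 of 18 receptors had every mutant above every control, Ccr6, Ccr7, Cxcr3, Cx3cr1 and Xcr1 being the others. None of the 18 had every mutant below. Of these 8, Ccr2 alone had a mean of at least 1 FPKM. Every mutant lay above every control in 13% of all tested genes and in 8.13% of genes seen below 1 FPKM. Every mutant lay below every control in 2.65% and 3.12% of them. Cxcr4, the receptor of Cxcl12, had a log2 difference of 0.26 (adjusted p = 0.626), and Cxcr6, the receptor of Cxcl16, one of 0.04 (adjusted p = 0.967). Cxcr2 was at 0.0618 to 0.118 FPKM in mutants and 0.0829 to 0.132 FPKM in controls.

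Atypical receptors bind chemokines without G protein signalling and clear or carry them. Of 6 genes listed for this group in the table, 4 were tested and 0 called. Cxcr7, also called Ackr3, a scavenger of Cxcl12, had a log2 difference of 0.51 (adjusted p = 0.346), Ccrl1, or Ackr4, a scavenger of CCR7 ligands, one of 0.62 (adjusted p = 0.303), Ccrl2 one of 0.55 (adjusted p = 0.297), and Darc, or Ackr1, one of 0.17 (adjusted p = 0.844). Ccrl1 stood at 8.41, 4.87 and 5.59 FPKM in mutants and at 4.93, 3.77 and 2.57 FPKM in controls, and the groups overlapped by a small margin. In 2 of the 4, Cxcr7 and Ccrl2, every mutant lay above every control, against 13.0% of all tested genes. The lowest mutant and highest control were close, at 8.465 and 7.992 FPKM for Cxcr7 and 1.465 and 1.30 FPKM for Ccrl2.

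**Figure D5:**
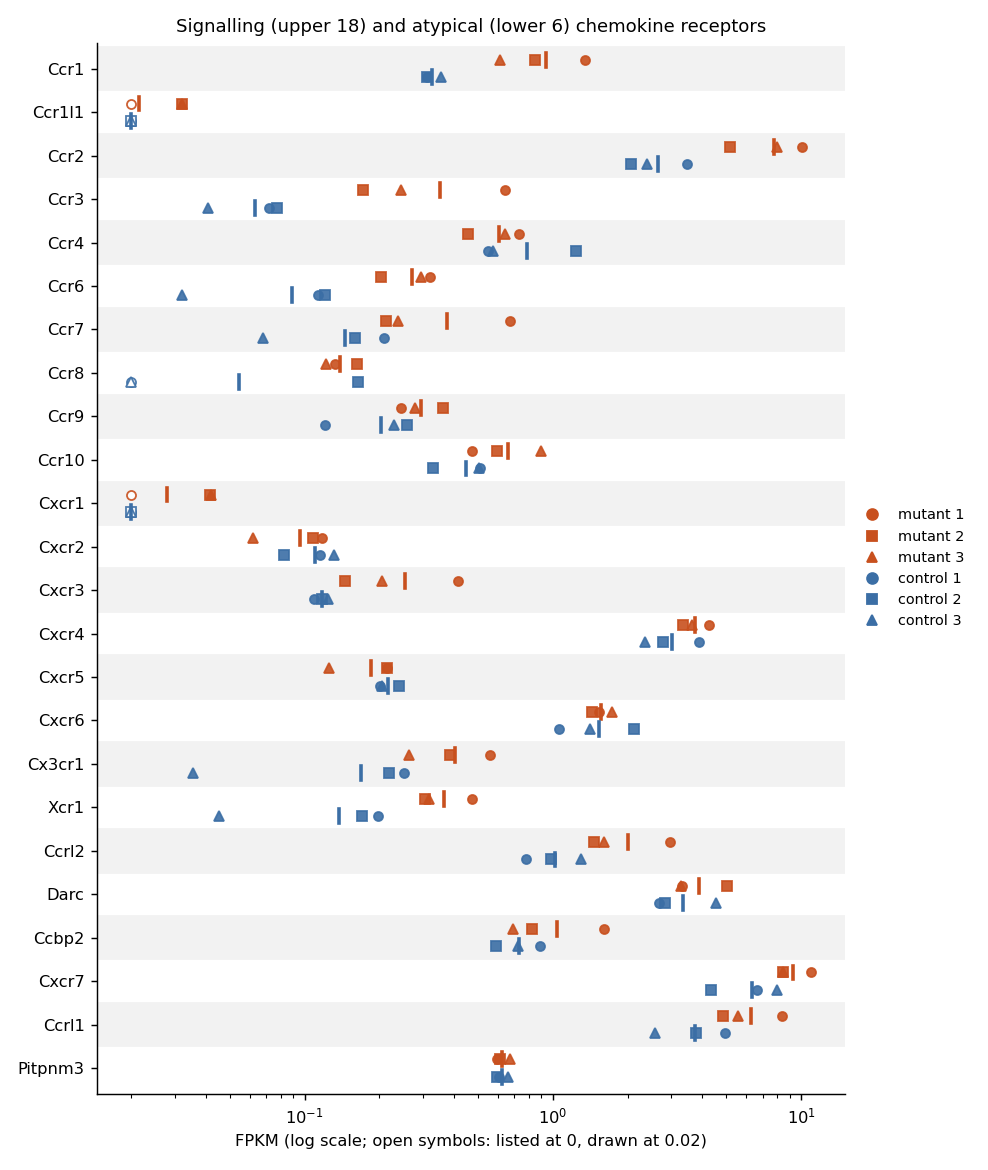
FPKM on a log axis of 18 signalling and 6 atypical or related chemokine receptors, with mutants above controls in each row and open symbols for values listed at 0. Ccr1, Ccr2 and Ccr3 are among those with all 3 mutants above all controls, and Cxcr4 and Cxcr6 overlap.

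Among related genes, Pf4, or Cxcl4, a platelet and macrophage chemokine that the symbol rule does not take in, stood at 27.0, 17.5 and 15.6 FPKM in mutants and at 6.09, 4.93 and 13.2 FPKM in controls (log2 difference 1.28, SE 0.31, adjusted p = 0.141). Of 8 genes for enzymes that cut or shed chemokines, 5 were tested, 0 were called and the median difference was -0.02. Adam10 and Adam17, which shed Cx3cl1 and Cxcl16, had differences of -0.02 and 0.23, Dpp4, which trims chemokine ends, and its relative Fap ones of -0.10 and -0.23, and Mmp2, which cleaves Ccl7 and Cxcl12, one of 1.01 (adjusted p = 0.141). Of 18 cytokines that can induce chemokines, 6 were tested, 0 were called and the median was 0.57. Il1b stood at 3.97, 4.41 and 1.81 FPKM in mutants and at 1.46, 1.85 and 1.56 FPKM in controls, with mutant 3 below control 2 (adjusted p = 0.268). Csf1, the macrophage growth factor, had a difference of 0.59 (adjusted p = 0.286), Il18 of 0.47 (adjusted p = 0.338) and Il33 of 0.54 (adjusted p = 0.358). Ifng was at 0 to 0.0423 FPKM in mutants and 0 to 0.157 FPKM in controls. All 14 listed NF-kB and interferon pathway genes were tested, with 0 called and a median of 0.29. The smallest p-values belonged to Irf8, a myeloid factor (log2 difference 0.68, adjusted p = 0.136), Relb (0.56, adjusted p = 0.186), Irf1 (0.46, adjusted p = 0.367) and Stat3 (0.38, adjusted p = 0.406).

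Marker genes of cells that make or answer chemokines were measured in the same libraries. Of 20 listed macrophage markers 18 were tested, with a median log2 difference of 1.05, and in 14 every mutant lay above every control (13.0% of all tested genes). Their summed level was 346 to 621 FPKM in mutants and 148 to 253 FPKM in controls. Fcer1g, an Fc receptor chain, was called higher, with 11.4, 10.3 and 9.93 FPKM in mutants and 4.20, 3.26 and 3.66 FPKM in controls (adjusted p = 0.0242). Dendritic and Langerhans cell markers summed to 140 to 258 FPKM in mutants and 51.3 to 121 FPKM in controls, and mast cell markers to 42.0 to 75.5 and 17.9 to 29.5 FPKM. T and natural killer cell markers summed to 5.02 to 6.44 FPKM in mutants and 2.18 to 4.53 FPKM in controls, with a single gene, Cd3g, above the filter. B cell markers summed to at most 0.523 FPKM in any library, and Pax5 was at 0 throughout. Neutrophil markers summed to 12.2 to 21.7 FPKM in mutants and 8.84 to 12.7 FPKM in controls, with S100a8, which keratinocytes also express, at 10.8 to 11.6 and 8.09 to 11.6 FPKM. S100a9, its partner, stood at 7.78 FPKM in mutant 2 and at most at 1.06 FPKM in any other library, and Mpo stayed at or below 0.0738 FPKM in all libraries. Of 11 fibroblast markers 0 were called, with a median difference of 0.91, and in 8 every mutant lay above every control, against the same 13.0%. Adipocyte markers summed to 395 to 608 FPKM in mutants and 345 to 385 FPKM in controls, and blood endothelial markers to 48.6 to 60.1 and 37.3 to 47.0 FPKM. The part of each cell type in the ligand levels was not tested.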

How the data were processed

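Total RNA from ventral dermis of 6 mice was sequenced as paired-end stranded libraries, and the authors deposited 1 FPKM value per gene and library. Per the submitters' processing notes, the tools were GSNAP and HTSeq and the build was mm10. No versions, annotation, counting options or gene lengths are given in the sources used here. Whole reads per gene were recovered from the steps of the FPKM values for 23412 of 23412 genes (relative tolerance 3e-09) and served for depth and an alternative test. The 1820 genes at 0 everywhere and the 1448 seen in a single library could not be checked.

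The 12560 genes that averaged 1 FPKM or more were compared as log2(FPKM + 1), a scale that understates changes of low genes. Groups were compared with limma 3.58.1 in R 4.3.3 (trended variance prior, two-sided), with Benjamini-Hochberg adjustment over all genes, a threshold of 0.05 and no covariate or block. Both this test and the read recovery were tested on simulated data. Each library is from its own mouse, per the series' design text, and the p-values reflect variation among these mice. Mutant 2 held both Xist and Y-linked RNA, and the reason was not tested. The model with library sex counted it with the libraries that expressed Y-linked genes. Same-numbered mutants and controls did not deviate together, so the numbers were not treated as pairs. The ligands, gene lists and named genes were chosen with earlier results of these data known. All ligands with a mean of at least 1 FPKM are named with every value. Of the receptor, enzyme, cytokine and factor lists, up to 4 genes with the smallest p-values are named under that rule, and others were picked after their values were seen. Positions are from GENCODE M21 (GRCm38), which located 37 of 38 ligands, and shared 50-base words were counted over its transcripts. RefSeq promoter windows (GRCm38.p6) existed for 26 of the 38. A single gene was left out of the receptor list and is not reported here.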

Additional observations from a re-analysis of the deposited data

How the results depend on the processing

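The count of ligands called higher was 0 as reported and 0 under median-of-ratios scaling, a pseudocount of 0.1, no filter on low values, a mean of at least 5 FPKM, the replicate block, library sex as a covariate and limma-voom on recovered reads. Leaving out each library in turn gave 0 to 3, the 3 being Ccl6, Ccl9 and Cxcl2 without control 3. There 189 of all 12560 genes were called higher, and genotype cannot be told apart from sex. In every setting 0 ligands were called lower. The median log2 difference of 0.50 became 0.41 with median-of-ratios scaling (all genes -0.01), 0.70 with pseudocount 0.1, 0.33 with no filter (34 ligands), 0.40 with the sex covariate and 0.71 with limma-voom. It ranged from 0.31 to 0.63 when single libraries were left out, and was 0.37 without control 2 and mutant 1, a setting chosen after seeing the data. With the replicate block the median was 0.50 and 7 of 18 ligands had an unadjusted p under 0.05 (15.6% of all genes higher). With the sex covariate 5 of 18 did (4.04%). Same-numbered libraries had correlations of 0.00159, 0.0367 and -0.0819, so the block shares only a number.

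Signs turned for Cxcl12 with median-of-ratios scaling (-0.10), for Ccl2 (-0.30) and Cxcl1 (-0.10) with the sex covariate, and for Cx3cl1 (-0.037) and Cxcl12 (-0.0711) without control 2 and mutant 1. With single libraries left out, Ccl2 ranged from -0.0134 to 0.64, Cx3cl1 from -0.0165 to 0.17, Cxcl12 from -0.0595 to 0.11 and Cxcl14 from -0.29 to 0.11. None of these 5 ligands passed the threshold in any setting, and the cause was not tested. The other values, 227 of 242, kept their sign and side of the threshold. Ligands under 1 FPKM are limited by depth, with 105 reads at most in any library.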
